A study of Mus musculus with 8 samples.

Results

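Messenger RNA of 8 epithelial genes was followed in the posterior part of mouse embryos that lack the homeodomain transcription factor Cdx2. The genes were the keratins Krt7, Krt8, Krt18, Krt19 and Krt23 and the claudins Cldn4, Cldn6 and Cldn7. They were selected on measured values of these data, their ratios of null over wild type, so those ratios are given as a description with no test. They were represented by 10 of 41174 probes, and made up 8 of the 15489 genes that could be tested. The groups were Cdx2 null mutant and wild type embryos of strain C57Bl6J/CBA at 4/5 and at 7/8 somites, and the age in days was not given. Tissue between the youngest somite and the base of the allantois was taken from 20 embryos of each genotype and stage, so each group was 1 pool. The 2 pools of a stage shared 4 two-colour Agilent arrays, with the null pool on the dye Cy3 on arrays 1 and 3 and on Cy5 on arrays 2 and 4. The labels do not say how the null allele was made or in which cells.

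Keratins are intermediate filament proteins. A filament is built from pairs of a type I chain and a type II chain, and single-layered epithelia rely on the type II chain Krt8 with the type I chain Krt18, to which Krt7 and Krt19 can be added. Claudins are membrane proteins that form the strands of tight junctions and set which ions and solutes pass between neighbouring cells. In the early embryo these genes are known from trophoblast, extraembryonic endoderm, surface ectoderm, gut and notochord.

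The SD given for a stage is that of its 4 arrays and is technical, because all 4 carried the same RNA. Values are log2 ratios of null over wild type unless a level is named, and arrays are given in the order 1 to 4. The share of probes well above background in a channel ran from 46.5% to 58.95%. All 10 probes of the 8 genes were well above background on 4 of 4 arrays in both genotypes at both stages. Cdx2 itself had less signal in null than in wild type on each of 8 arrays, at a mean log2 ratio of -1.39 (SE 0.09, limma adjusted p = 3.07e-09), with single arrays from -1.61 to -1.10. Whether its probe lies in the deleted part of the gene was not given in the sources used here. All 10 listed markers of caudal epiblast, neural tissue and presomitic mesoderm passed the detection filter, which asks for signal in only 1 genotype at 1 stage.

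The 8 genes did not move together. Krt19 was lower in null on every array, whereas Krt23, Krt8 and Krt18 were higher on every array. Krt7 was higher by less, at a mean of 0.25 over both stages. The 3 claudins lay between -0.33 (Cldn4) and 0.15 (Cldn7) over both stages, and each changed sign with stage or dye.

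Krt19, a type I keratin with a very short tail domain, had log2 ratios of -1.29, -1.69, -1.25 and -1.53 at 4/5 somites and of -1.29, -1.36, -1.37 and -1.19 at 7/8 somites. The null pool was therefore low on all 8 arrays, and no array came near 0. The means were -1.44 ± 0.21 (SD, 4 arrays) and -1.30 ± 0.08, or 2.71-fold and 2.46-fold lower in the null pool. Counted from the lowest ratio over both stages, it held place 10 among all genes tested. Its probe, on the minus strand at chr11:100002392-100002451 of mm9, is shown because the lowest ratio of the group rests on this single probe.

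Krt19 probe: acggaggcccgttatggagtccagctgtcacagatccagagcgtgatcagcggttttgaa

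Krt23, a type I keratin that lies in the same gene cluster, went the other way. Its log2 ratios were 0.71, 1.01, 0.76 and 0.88 at 4/5 somites and 1.90, 1.76, 1.91 and 1.70 at 7/8 somites. The null pool was high on all 8 arrays, and the 2 stages did not overlap. The means were 0.84 ± 0.13 and 1.82 ± 0.11, or 1.79-fold and 3.52-fold higher in the null pool. It held place 7 from the highest ratio over both stages, and the gap of 0.98 between its stages was at percentile 99.98 of all genes. Taken from the scanner's own log ratio, the value at 7/8 somites was 2.49. Krt23 minus Krt19, taken within each array, lay between 2.003 and 3.28 on the log2 scale, a difference that a constant scaling of an array leaves as it is.

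Krt18, the main type I partner of Krt8, had log2 ratios of 0.17, 0.54, 0.33 and 0.58 at 4/5 somites and of 0.57, 0.60, 0.54 and 0.81 at 7/8 somites. All 8 were above 0, and the stages overlapped. The means were 0.40 ± 0.19 and 0.63 ± 0.13. Krt8, the type II chain, had log2 ratios of 0.24, 0.10, 0.31 and 0.09 at 4/5 somites and of 0.53, 0.51, 0.53 and 0.49 at 7/8 somites. Every array at 7/8 somites was above every array at 4/5 somites, with means of 0.18 ± 0.11 and 0.51 ± 0.02. A second Krt8 probe, further towards the end of the transcript, gave 0.29 ± 0.12 and 0.47 ± 0.08 and was also above 0 on all 8 arrays. The difference between Krt8 and Krt18 within an array ran from -0.50 to 0.07, and at 7/8 somites it averaged -0.12 ± 0.14, less than the spread of arrays.

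Krt7, a type II keratin of glandular and ductal epithelia, had log2 ratios of 0.25, 0.08, 0.32 and 0.16 at 4/5 somites and of 0.36, 0.13, 0.50 and 0.22 at 7/8 somites. All were above 0, and within each stage both arrays with the null pool on Cy3 gave the higher values. The means were 0.20 ± 0.10 and 0.30 ± 0.16. A second Krt7 probe gave 0.14 ± 0.35 and 0.26 ± 0.19, and at 4/5 somites it was at 0.43 with the null pool on Cy3 and at -0.15 with the dyes swapped. The second probe thus gave no single direction at 4/5 somites.

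Cldn4, a claudin of tight junctions with low permeability, had log2 ratios of 0.10, -0.43, 0.21 and -0.37 at 4/5 somites and of -0.51, -0.77, -0.31 and -0.59 at 7/8 somites. All 4 arrays at 7/8 somites were low, whereas at 4/5 somites the sign followed the dye. The means were -0.12 ± 0.32 and -0.54 ± 0.19. At 4/5 somites the mean was 0.16 with the null pool on Cy3 and -0.40 with it on Cy5. From the scanner's log ratio the value at 7/8 somites was -1.15.

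Cldn7, which in many epithelia lies along the lateral membrane, had log2 ratios of -0.31, 0.22, -0.22 and 0.09 at 4/5 somites and of 0.49, 0.27, 0.52 and 0.11 at 7/8 somites. It was above 0 on all 4 arrays of the later stage and split by dye at the earlier one, with means of -0.06 ± 0.25 and 0.35 ± 0.19. Cldn6, a claudin of embryonic epithelia, had log2 ratios of -0.53, -0.02, -0.40 and -0.14 at 4/5 somites. Its values at 7/8 somites were -0.0056, 0.08, -0.0019 and 0.09, so the genotypes were level there. The means were -0.27 ± 0.24 and 0.04 ± 0.05. Cldn7 minus Cldn4 within an array averaged 0.89 ± 0.15 at 7/8 somites and 0.07 ± 0.57 at 4/5 somites. These SDs are technical, so they do not test a difference between the 2 claudins or between the stages.

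**Figure D1:**
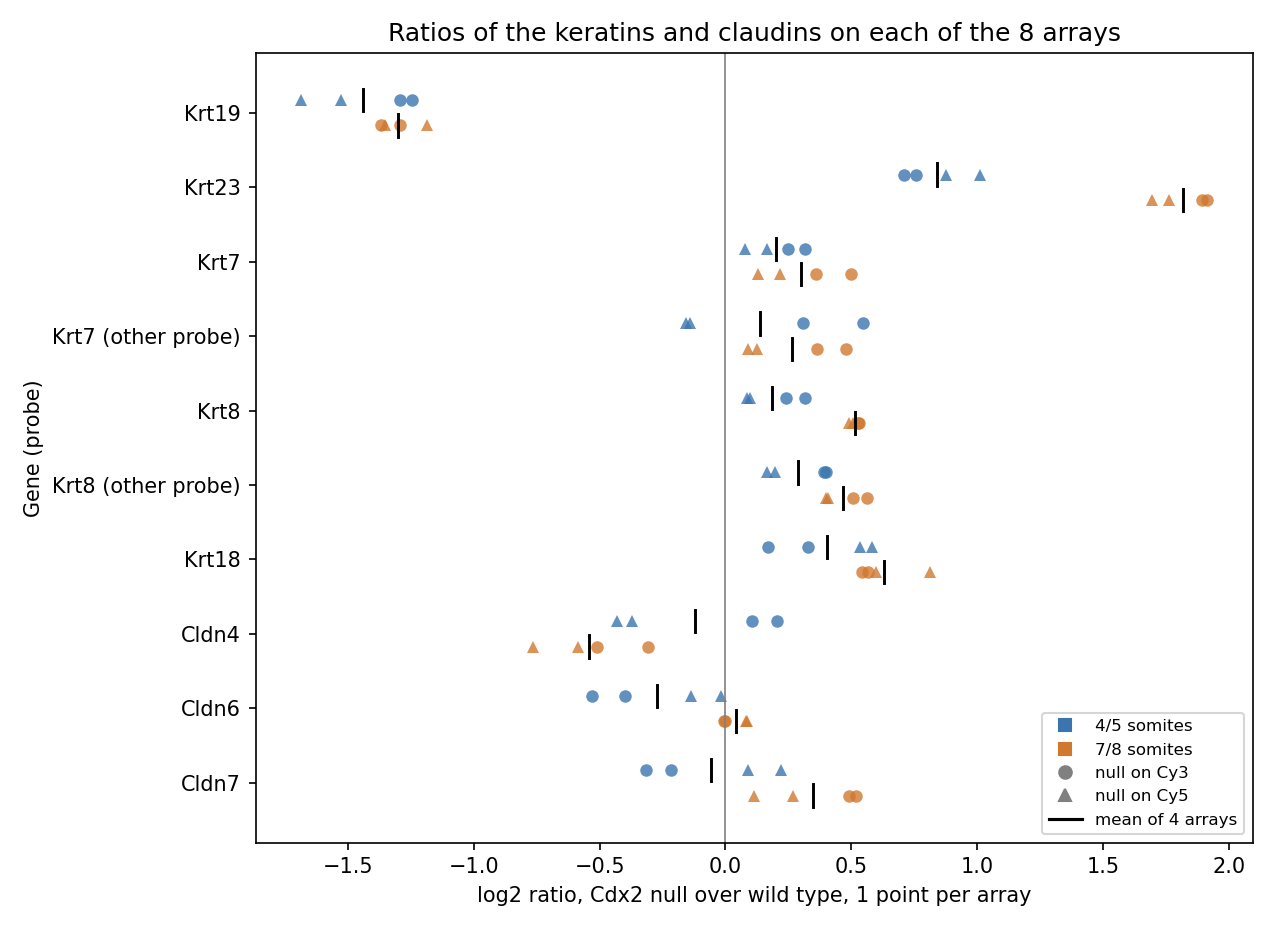
Each point is the log2 ratio of null over wild type (horizontal axis) of 1 probe on 1 array, with blue for 4/5 and orange for 7/8 somites, circles for the null pool on Cy3, triangles for it on Cy5 and a black bar for the mean of 4 arrays. Krt19 sits at -1.69 to -1.19 on all arrays and Krt23 at 0.71 to 1.91, while the 4/5 somite points of Cldn4 and Cldn7 fall on both sides of 0 by dye.

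Because the genes were chosen on this contrast, their calls are set out only as a count. A gene was called when limma's test on the 2 stage means gave a p of at most 0.05 after Benjamini-Hochberg adjustment over all 15489 genes. This called 1677 genes, or 10.8% of those tested, with 1001 higher (6.46%) and 676 lower (4.36%) in the null pools. In data simulated with the spread of these arrays, the share of unchanged genes among the calls was above the nominal threshold, so the adjusted p-values here may be too small. The simulation changed fewer genes than were called here and drew the spread between stages alike for all genes. It also added the spread of arrays to a spread of stage means that already holds it. The size of that share therefore does not carry over. With median centring in place of loess, 79.5% of called genes were higher, against 59.7% here. Leaving out array 2 of 4/5 somites lowered the total to 922, leaving out array 2 of 7/8 somites to 794, and leaving out array 4 of 7/8 somites to 949. Of the 8 genes, 3 were called higher, 2 lower and 3 not at all. They were chosen on the same ratios, so nothing is read from that share or from any single call. A difference of at least 2-fold with the same sign on all 4 arrays was met by Krt19 alone among the 8 at 4/5 somites, where 0.387% of all genes met it. At 7/8 somites it was met by Krt19 and Krt23, beside 0.51% of all genes.

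Levels in each genotype show on which side the ratios differed between stages. They are log2 intensities of the separate dye channels, put on a common scale between arrays, and each probe is compared only with itself. Krt23 was lower at 7/8 than at 4/5 somites in wild type and nearly level in the null pool. Its wild type level was 8.20, 7.99, 8.38 and 7.98 at 4/5 somites and 7.12, 7.52, 7.08 and 7.58 at 7/8 somites, a change of -0.81 with no overlap of arrays. In the null pool it was 8.98 ± 0.12 and then 9.14 ± 0.16, a change of 0.16 with overlap. The wider ratio at 7/8 somites thus came with a lower wild type level.

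Krt19 was higher at 7/8 somites in both genotypes, which stayed apart at both stages. Its wild type level was 10.74, 10.96, 10.79 and 10.90 at 4/5 somites and 11.38, 11.34, 11.64 and 11.43 at 7/8 somites. Its null level was 9.45, 9.28, 9.54 and 9.37 and then 10.09, 9.99, 10.27 and 10.24. The changes were 0.60 in wild type and 0.74 in the null pool, and no array of one stage overlapped the other. Even at 7/8 somites the highest null array, at 10.27, was below the lowest wild type array at 4/5 somites, at 10.74.

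Krt8 and Krt18 were nearly level between stages in wild type, with changes of 0.03 and -0.06, and higher at 7/8 somites in the null pool, with changes of 0.36 and 0.17. For Krt8 the null arrays ran from 14.63 to 14.91 at 4/5 somites and from 15.05 to 15.21 at 7/8 somites, without overlap. For Krt18 they ran from 15.41 to 15.55 and from 15.50 to 15.80, with overlap. Krt7 was higher at 7/8 somites by 0.41 in wild type and by 0.51 in the null pool, without overlap in either, and by 0.46 and 0.59 with its second probe.

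Among the claudins, Cldn4 was flat in wild type, with a change of -0.0091, and lower by stage in the null pool, from 7.17 ± 0.04 to 6.75 ± 0.04. Cldn7 was higher at 7/8 somites by 0.65 in the null pool without overlap and by 0.25 in wild type with overlap. Cldn6 differed between stages by -0.25 in wild type and by 0.07 in the null pool, with overlap in both. No change of the 8 genes between stages reached 2-fold, a size that 0.252% of all genes passed in wild type and 0.291% in the null pool without overlap of arrays. With no scaling between arrays the median change of all genes was 0.11 in both genotypes, against 0.0019 and 0.0015 on the common scale. The wild type changes of Krt8, Krt18 and Cldn4 were smaller than this shift, and no direction is read from them. With 1 pool per genotype and stage, no test of a stage change was possible.

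**Figure D2:**
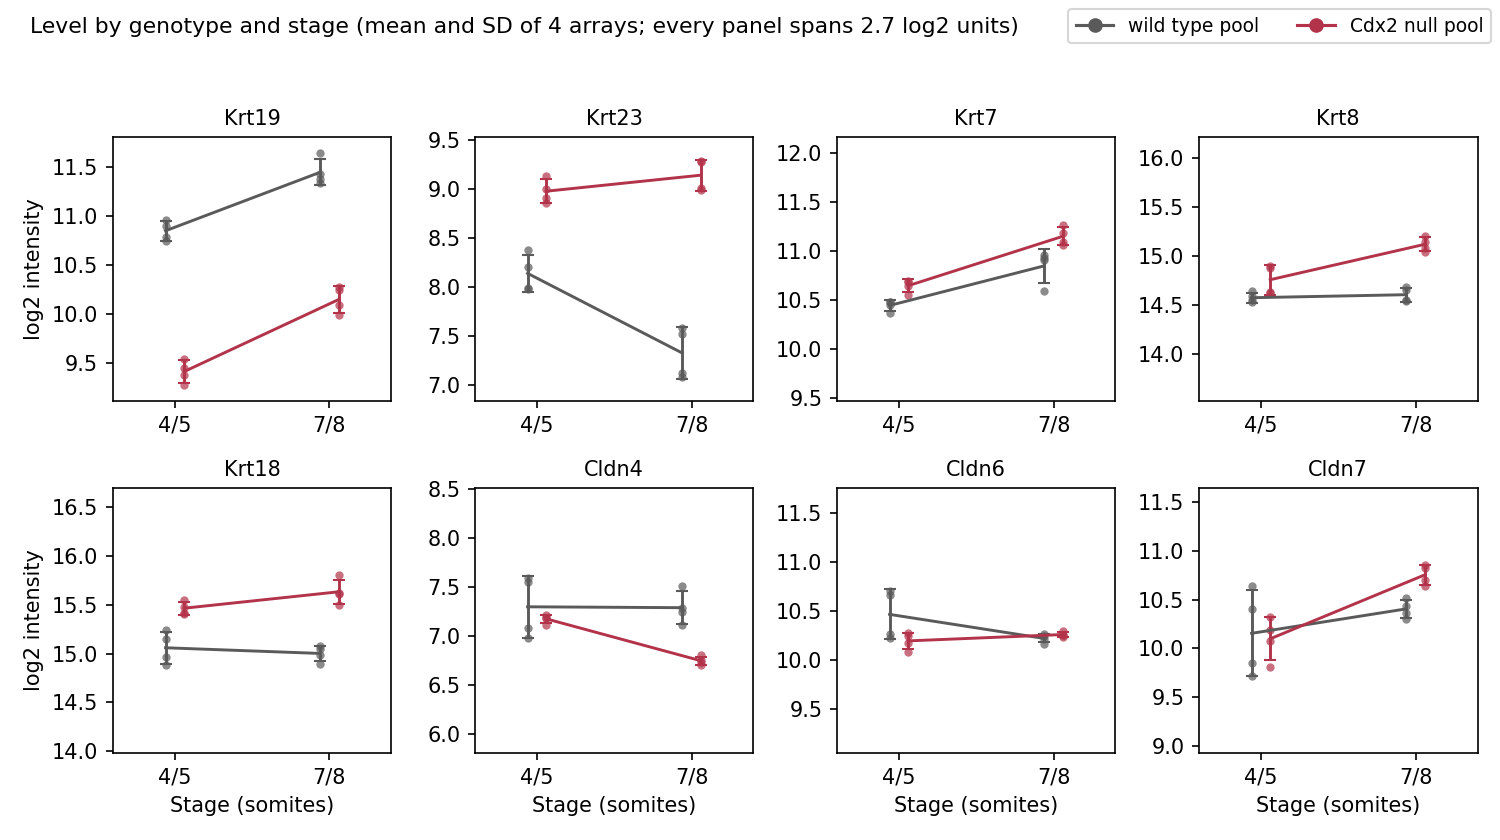
Each panel shows the log2 intensity (vertical axis) of 1 gene by stage in the wild type pool (grey) and the Cdx2 null pool (red), with 4 arrays as points and the mean with its SD as a line. Krt23 is 8.14 and then 7.33 in wild type and 8.98 and 9.14 in the null pool, whereas Krt19 is higher at 7/8 somites in both.

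Among the other keratins Krt5 rose, and the hair keratins Krt86 and Krt87 fell. Of 41 other keratin genes on the array, 16 passed the detection filter. With limma's test, 1 of the 16 rose and 2 fell, or 18.8% called beside 10.8% among all genes, and their median log2 ratio was -0.03 against -0.0058 over all genes. Krt5, the type II keratin of basal layers, rose by 0.92 (SE 0.08, limma adjusted p = 1.86e-07) and was higher on 8 of 8 arrays. Its usual type I partner Krt14 was at -0.03 and Krt15, a neighbour of Krt19, at -0.12, and neither passed the test. Krt14 and Krt15 were picked for mention after their values were seen. The hair keratins Krt87 and Krt86 were the 2 called lower, at -0.58 and -0.56. Both passed the detection filter only through wild type, so no p-value is given for them and nothing is read from the share of 18.8%. A filter that needed every array well above background in both genotypes could not keep these 2. Its 0 of 7 other keratins called lower therefore adds nothing. For Krt86 no array was well above background in null, so its fall is only a bound of at least 1.34-fold at 4/5 somites, with measured levels of 6.26 in null and 6.80 in wild type. Krt87 was well above background in null on 1 of 4 arrays at 4/5 somites and on 0 of 4 at 7/8 somites, where its fall is a bound of at least 1.37-fold, with measured levels of 6.27 and 6.84. Krt87 and Krt86 are close in sequence, so each probe may read both genes.

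Of 18 other claudin genes on the array, 9 were measured, of which 3 rose and 1 fell, with a median of 0.14. That is 44.4% called, beside 10.8% of all genes. Cldn3, a barrier claudin, rose by 0.61 (SE 0.09, limma adjusted p = 9.61e-05). Cldn2, a claudin that forms cation channels, rose by 0.45 (SE 0.09, adjusted p = 0.00114 by limma), and Cldn8 rose by 0.32 (SE 0.08, adjusted p = 0.0152 by limma). Cldn9 fell by 0.29 (SE 0.09, limma adjusted p = 0.0324), a call that was lost in 13 of 20 alternative settings. All 4 had the same sign on 8 of 8 arrays.

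**Figure D3:**
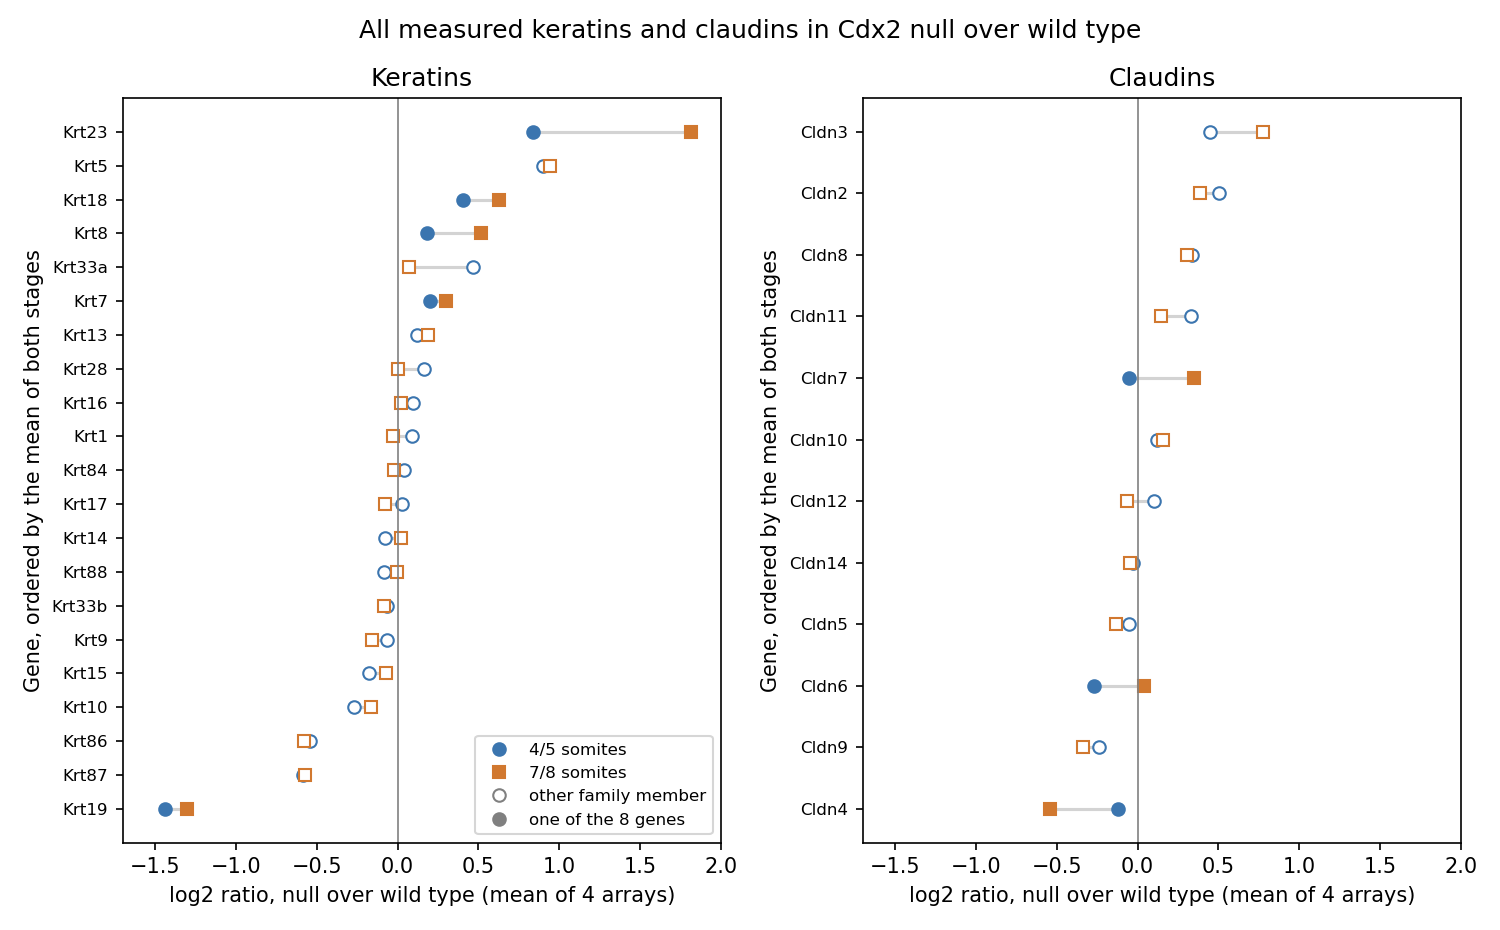
All measured keratins (left) and claudins (right) are ordered by their mean log2 ratio of null over wild type, with circles for the mean of 4 arrays at 4/5 and squares at 7/8 somites, filled for the 8 genes and open for the rest. Krt19 and Krt23 mark the ends of the keratins, and Cldn4 and Cldn3 the ends of the claudins.

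Several of the genes are direct neighbours in the genome. In the order of protein-coding genes of assembly GRCm38.p6, Krt8 and Krt18 lie side by side on chromosome 15, although one is type II and the other type I, and both were higher in the null pools. Eif4b, the next gene beyond Krt18, was at -0.19 (limma adjusted p = 0.188). On chromosome 5, Cldn4 and Cldn3 lie side by side, and Cldn4 was at -0.33 over both stages while Cldn3 was at 0.61. On chromosome 17, Cldn6 lies beside Cldn9, at -0.12 and -0.29. Krt19 lies on chromosome 11 between Krt15 and Krt9, which were at -0.12 and -0.11 and did not pass the test. Krt7 lies beside Krt87, which fell, and the nearest neighbours of Cldn7 (Slc2a4 and Elp5) did not pass the test.

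Stretches around the annotated starts of Krt8, Krt18, Krt23 and Cldn4 are shown, from 250 bases before the start to 30 after it, because the neighbours Krt8 and Krt18 were both higher in null, while Krt23 and Cldn4 had the largest ratios in each direction among the rest with such a window. Sequences are from RefSeq, build GRCm38.p6, on the strand of the gene. Capitals mark matches, on either strand, to TTTATG or TTTATT (motifs bound by Cdx proteins), AACCGGTT (grainyhead-like factors), GCCNNNGGC (AP-2), TGANTCA (AP-1) or the TATA box motif TATAAA. The 4 windows lie at chr15:102004313-102004592 (Krt8, minus strand), chr15:102027966-102028245 (Krt18, plus strand), chr11:99493091-99493370 (Krt23, minus strand) and chr5:134946905-134947184 (Cldn4, minus strand).

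Krt8: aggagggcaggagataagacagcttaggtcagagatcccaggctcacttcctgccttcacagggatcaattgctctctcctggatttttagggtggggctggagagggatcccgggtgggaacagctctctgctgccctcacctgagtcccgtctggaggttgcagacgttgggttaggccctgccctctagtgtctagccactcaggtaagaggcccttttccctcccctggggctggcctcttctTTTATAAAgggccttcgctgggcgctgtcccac

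Krt18: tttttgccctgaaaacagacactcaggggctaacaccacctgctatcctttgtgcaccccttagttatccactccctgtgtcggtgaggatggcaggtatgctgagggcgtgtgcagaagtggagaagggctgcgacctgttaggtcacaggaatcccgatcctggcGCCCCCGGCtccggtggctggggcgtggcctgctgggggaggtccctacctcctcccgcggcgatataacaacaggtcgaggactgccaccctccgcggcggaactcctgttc

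Krt23: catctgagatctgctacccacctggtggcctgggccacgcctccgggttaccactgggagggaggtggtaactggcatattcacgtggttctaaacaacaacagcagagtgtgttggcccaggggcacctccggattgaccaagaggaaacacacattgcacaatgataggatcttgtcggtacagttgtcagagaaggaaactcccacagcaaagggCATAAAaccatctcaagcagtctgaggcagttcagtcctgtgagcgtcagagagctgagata

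Cldn4: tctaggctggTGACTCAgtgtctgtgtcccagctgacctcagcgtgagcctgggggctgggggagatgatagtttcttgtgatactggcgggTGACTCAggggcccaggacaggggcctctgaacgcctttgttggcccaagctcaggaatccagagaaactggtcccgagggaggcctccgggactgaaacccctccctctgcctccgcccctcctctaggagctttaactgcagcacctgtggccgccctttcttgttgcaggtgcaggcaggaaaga

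Windows of 300 bases, 250 before and 50 after the start, were found for 7 of the 8 genes, with a pair of starts for Cldn7, and were searched on both strands. Krt23 alone held TTTATG, as its reverse complement CATAAA, 32 bases before the start, and 11.9% of all 32851 windows hold this motif. Krt7 alone held TTTATT, which 19.6% of all windows hold, 8 bases before its start. GCCNNNGGC was present in Krt18 and Krt7 (16.6% of all windows), and TGANTCA in Cldn4 alone, at 240 and 158 bases before the start (7.81% of all windows). Krt8 alone held TATAAA, at its start and overlapping a reverse match (13.6% of all windows). AACCGGTT was found in none of the 8 windows and in 0.146% of all. CCGCCC, the GC box, was present in Cldn4, Cldn6, Cldn7 and Krt7 (35.7% of all windows) and is not in capitals. The neighbours Krt8 and Krt18 shared none of these motifs in their windows. Binding was not measured here, and a match is only a run of letters.

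Genes that work with keratins and claudins changed in part and in both directions. The share called was 22.7% for tight junction partners, 33.3% for desmosomes and keratin anchors, 35.3% for epithelial surface genes, 17.6% for epithelial regulators and 46.2% for other filaments, beside 10.8% of all genes (6.46% higher, 4.36% lower). These lists were chosen with earlier results known, so nothing particular to them is read from these shares. Among tight junction partners, 4 of 22 measured genes rose and 1 fell, with a median of 0.06. Cgnl1, an adaptor that links junctions to actin, rose by 0.72 (SE 0.08, limma adjusted p = 4.64e-06), with its other probes between -0.02 and 0.66. F11r, the junctional adhesion molecule A, fell by 0.47 (SE 0.11, adjusted p = 0.00517 by limma), with -0.77 at 4/5 and -0.18 at 7/8 somites. Tjp1 (the scaffold ZO-1) at 0.30, Pard6b at 0.29 and Prkci at 0.28 rose with adjusted p of 0.032 to 0.037 by limma, and their calls were lost in 13, 13 and 15 of 20 alternative settings. The other Tjp1 probe gave -0.04 and the other Pard6b probe 0.22. Prkci lies outside the rule for named genes and, like occludin (Ocln, at -0.03 and not called), was picked after its value was seen.

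Of the desmosome and keratin anchor genes, 4 of 15 rose and 1 fell, with a median of 0.07. The plakophilin Pkp1 rose by 0.83 (SE 0.08, limma adjusted p = 7.9e-07) and periplakin (Ppl), a linker of keratin to the desmosome, by 0.82 (SE 0.08, limma adjusted p = 1.05e-06). Pkp2, a plakophilin of simple epithelia and heart, fell by 0.65 (SE 0.09, limma adjusted p = 6.15e-05). Dsg2, a desmosomal cadherin, rose by 0.41, but its other probes gave -0.04 to 0.06. Pkp3, named after its value was seen, rose by 0.41.

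Among epithelial surface genes, 4 of 17 rose and 2 fell, with a median of 0.06. The collagen receptor Ddr1 rose by 0.42 and the adhesion molecule Epcam by 0.41 (SE 0.08 each, adjusted p = 0.00188 and 0.00217 by limma). The protease inhibitor Spint1 fell by 0.48 (SE 0.09, adjusted p = 0.000665 by limma) and its target protease St14 by 0.39, a call that was lost in 11 of 20 settings. E-cadherin (Cdh1), picked after its value was seen, was at 0.17 with an adjusted p of 0.234 by limma. Of the epithelial regulators, 3 of 17 rose, with a median of 0.07. Elf5 rose by 0.52 (SE 0.08, adjusted p = 0.000247 by limma), and Grhl2 rose by 0.34 (SE 0.08, adjusted p = 0.0104 by limma).

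Filament genes outside the keratins included 5 of 13 that rose and 1 that fell, with a median of 0.16. Nefm rose by 0.53, vimentin (Vim) by 0.46 and lamin A (Lmna) by 0.45 (SE 0.08 to 0.09, adjusted p = 0.000189, 0.000789 and 0.00129 by limma). Lamin B1 (Lmnb1) fell by 0.67 (SE 0.12, adjusted p = 0.000415 by limma), with -0.32 at 4/5 and -1.03 at 7/8 somites. Vimentin is the filament of mesenchyme, and lamins line the nucleus.

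Some markers of other tissues also differed between the genotypes, in both directions. In bulk tissue, fewer cells of a type and less RNA per cell cannot be told apart. The share called was 50% for visceral endoderm, 71.4% for trophoblast, 33.3% for surface ectoderm, 66.7% for allantois and extraembryonic mesoderm, 50% for notochord and node and 63.6% for gut endoderm, beside 10.8% of all genes (6.46% higher, 4.36% lower). Of 14 visceral endoderm markers, 7 rose, led by the endocytic receptor gene Cubn at 1.18 and its partner Amn at 0.97. Apoe at 0.96 and Dab2 at 0.69 (its other probe at 0.21) also rose. Ttr at 0.15 and Afp at -0.17 over both stages did not pass the test and were picked after their values were seen. Afp had opposite signs by stage, at 0.48 on average at 4/5 and -0.82 at 7/8 somites, with the same sign on all 4 arrays of each. The log2 summed level of the list ran from 15.82 to 15.91 in null and from 15.20 to 15.34 in wild type at 4/5 somites, and from 15.09 to 15.15 and from 14.62 to 14.63 at 7/8 somites. Of 7 measured trophoblast markers, 4 rose (Prl3d1 at 0.58, Rhox6 and Elf5 at 0.52, Rhox9 at 0.45) and Plac1 fell by 0.33. Their summed level ran from 11.37 to 11.49 in null against 11.11 to 11.20 in wild type, and from 11.50 to 11.58 against 11.15 to 11.32 at the later stage. The trophoblast genes Tpbpa, Gcm1 and Esx1 did not pass the detection filter.

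Of 9 surface ectoderm markers, 3 rose, namely Krt5, Wnt6 at 0.61 and Gata3 at 0.31. The median of the list was 0.0033, and the 6 genes not called (Krt14, Krt15, Krt17, Trp63, Tfap2a and Dlx5) lay between -0.12 and 0.13. The summed level of all 9 was 12.48 to 12.74 in null and 12.17 to 12.29 in wild type at 4/5 somites, and 12.91 to 13.14 against 12.38 to 12.57 at 7/8 somites. Of 6 allantois and extraembryonic mesoderm markers, 3 rose (Snai2 at 1.27, Ahnak at 0.80 with other probes from -0.03 to 0.91, Postn at 0.44) and Bmp4 fell by 0.49, with summed levels of 12.73 to 12.91 against 12.15 to 12.23 and of 13.08 to 13.19 against 12.34 to 12.46. In these 4 lists the summed level of the null pool was above that of wild type without overlap at both stages. A sum of intensities over different probes is set mostly by the brightest genes, so it does not speak for a list as a whole. For surface ectoderm it stands beside a median ratio of 0.0033. The part of such tissues in the higher ratios of Krt7, Krt8, Krt18 and Krt23 was not tested.

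Of 8 notochord and node markers, 3 fell (Tekt1 by 0.68, Shh by 0.60, T by 0.34) and Nodal rose by 0.36. The 4 not called (Nog, Foxa2, Chrd and Foxj1) lay between -0.24 and 0.02, and the median of the list was -0.19. The summed level of all 8 was 12.51 to 12.58 in null against 12.91 to 12.96 in wild type, and 12.53 to 12.61 against 12.67 to 12.72 at 7/8 somites. T was at -0.61 and then -0.07 by stage and Nodal at 0.04 and then 0.69, and their calls were each lost in 17 of 20 settings. Of 11 gut endoderm markers, 4 rose and 3 fell. Nepn fell by 2.44 and Shh, which both lists hold, by 0.60, whereas Cer1 rose by 0.95 and Spink1 by 0.74. Isx, picked after its value was seen, was the other marker called lower, at -0.28. It was well above background on 0 of 4 null arrays at each stage and passed the filter only through wild type at 7/8 somites. Its call was lost in 13 of 19 settings. Summed gut levels overlapped at both stages, with 13.98 to 14.25 in null and 13.95 to 14.12 in wild type at 4/5 somites. The part of notochord or gut cells in the low ratio of Krt19 was not tested.

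Of the markers of vessels, blood and presomitic mesoderm, 40%, 33.3% and 20% were called, all lower, beside 10.8% of all genes (4.36% lower). Each share rests on 1 or 2 called genes of at most 5 measured, so nothing is read from it. Etv2 and Kdr were the 2 of 5 endothelial markers that fell, by 1.01 and 0.88, and those not called lay between -0.14 and 0.20. Msgn1 was the 1 of 5 presomitic mesoderm markers that fell, by 0.60, and Hbb-bh1 the 1 of 3 primitive erythroid markers, by 0.39. None of 5 caudal epiblast and neural markers was called by limma, and 1 had an unadjusted p under 0.05. Several genes stand in more than 1 list, among them Krt5, Elf5 and Shh.

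**Figure D4:**
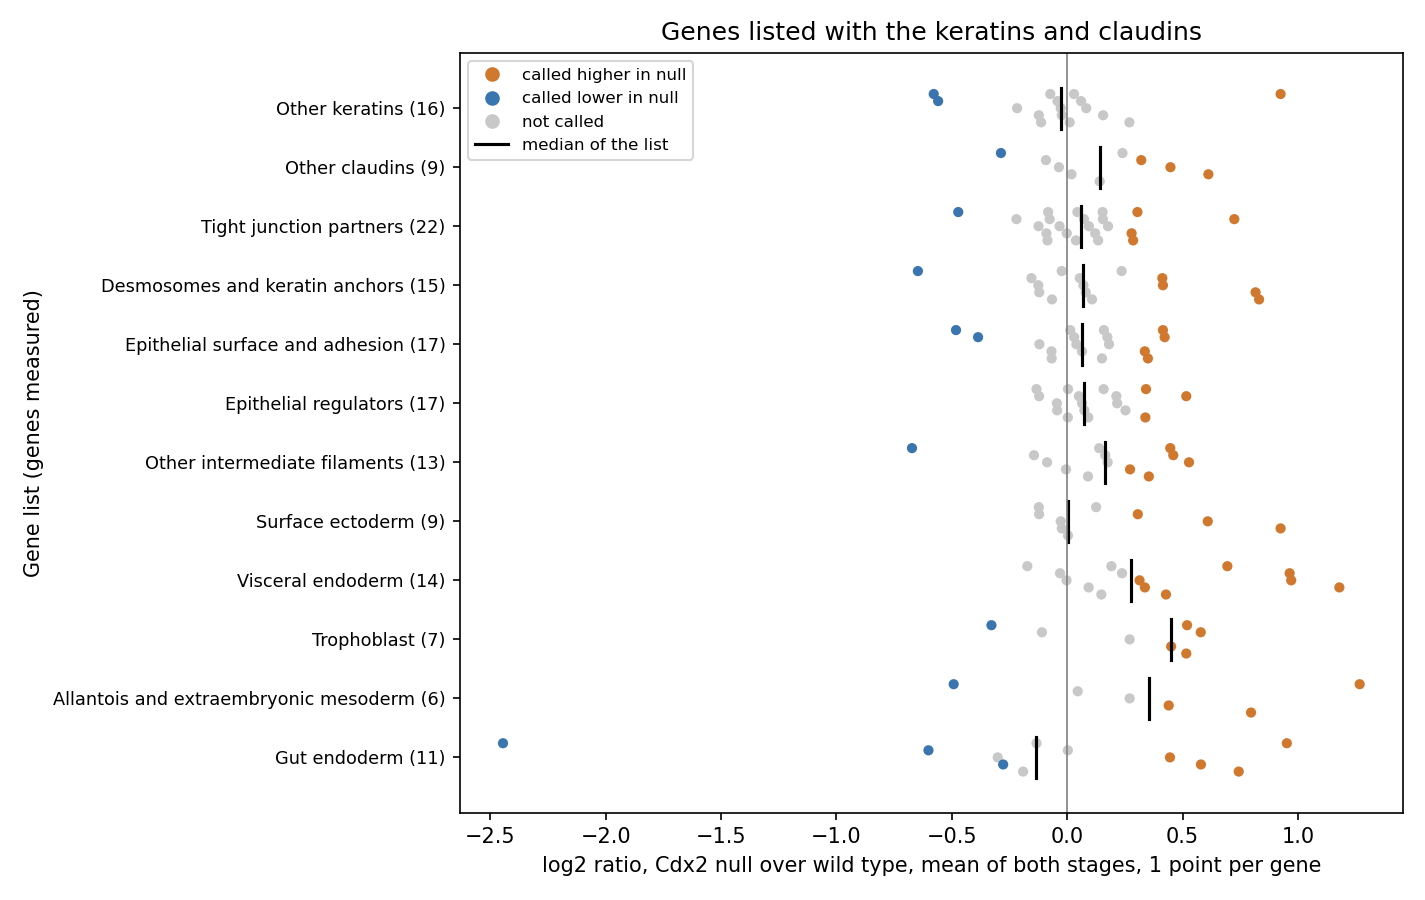
Each point is a measured gene at its mean log2 ratio of null over wild type over both stages (horizontal axis), by gene list, in orange where called higher, blue where called lower and grey where not called, with a bar at the list's median. The medians of the lists drawn run from -0.13 for gut endoderm to 0.45 for trophoblast, and most lists hold called genes on both sides of 0.

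The profiles most like those of Krt19 and Krt23 were sought over the 8 arrays, as the root mean square difference of log2 ratios. For Krt19 they were Sct (secretin) at 0.219, Rgn (regucalcin) at 0.29 and Saa3 (serum amyloid A3) at 0.308. The Saa3 probe had no array well above background in null, so it was at least 2.47-fold lower at 4/5 and at least 2.98-fold lower at 7/8 somites, with measured null levels of 6.27 at both stages and wild type levels of 7.70 and 7.97. For Krt23 they were Prl4a1, a gene of the prolactin family, at 0.169, Lratd1 at 0.21 and Col2a1, the collagen of cartilage and notochord, at 0.284. Their ratios at 7/8 and 4/5 somites, which the choice by likeness sets near those of Krt23, were 1.80 against 0.94 for Prl4a1, 1.78 against 1.08 for Lratd1 and 1.504 against 0.98 for Col2a1. The likeness is a description over arrays that share 4 pools.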

How the data were processed

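Two-colour arrays of 4 RNA pools were analysed, each pool from 20 embryos, with 4 arrays per stage in 2 dye swap pairs (an original and a technical repeat) on 2 slides. The deposited scanner files give each spot's signal and local background as intensity without normalization, per the file headers. The deposited series matrix holds log10 ratios, which equalled the scanner's log ratio turned to null over wild type at 45018 of 45018 spots on each array (tolerance 1e-05). Feature Extraction is given as version 9.5.3 in the submitters' processing notes and as 10.5.1.1 in the file headers. Probe positions are on build mm9.

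Mean signals were corrected with normexp (offset 50) and normalized by loess (limma version 3.58.1 under R version 4.3.3, files read by data.table in version 1.17.8), with control spots at weight 0. Spots with an uneven local background (55 on array 1 of 4/5 somites) received the array's median background, and spots with an outlier flag were left out. Probes were kept (21907 of 41174) when 3 or more of a stage's 4 arrays were well above background in 1 genotype. They were named by accession in RefSeq (GRCm38.p6; 25263 probes matched), and the brightest probe stood for a gene. The test used 2 stage means per gene with lmFit and eBayes, two-sided, with 1 residual degree of freedom and 18.98 prior ones. Its p-values rest on the spread between 2 stages, not between litters or pools of 1 kind. Most of that spread is the prior one (SD 0.12), which all genes share, so many genes have nearly the same SE of 0.08. Levels used Aquantile scaling. A bound put the lowest signal among detected probes in place of a dimmer one.

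The 8 genes and all gene lists were chosen with earlier results of these data known. Named genes are the 8, Cdx2, at most 4 called genes per list with the largest change, and the 3 nearest profiles of the genes with the largest fall and rise. Alternatives changed the background correction, source signal, normalization, filter, probe choice, arrays, slide and dye order.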

Additional observations from a re-analysis of the deposited data

How the results depend on the processing

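The count of called genes, 1677, was 524 without background correction, 971 with uneven local backgrounds kept, 746 without the filter on dim probes, 2554 with slide as a block and 1112 with the null pool on Cy3 alone. Leaving out 1 array at a time gave 794 to 1585. For the ratios of the 8 genes, 441 of 456 values under an alternative stayed within 1 SD of the value given and 15 moved further. For values over both stages this SD was that of the 2 stage means, not of the arrays. Many values could not move. Leaving out an array of one stage cannot alter the other stage, the dim probe filters kept every probe of these genes, and probe choice cannot alter a gene with a single probe. The count is therefore no measure of how firm the ratios are. Signs turned only for Cldn4 at 4/5 somites (1 of 19 settings), Cldn7 at 4/5 somites (2 of 19) and Cldn6 at 7/8 somites and over both stages (1 of 19 each). Over both stages Krt19 ran from -1.45 to -1.28, Krt23 from 1.11 to 1.81, Krt18 from 0.40 to 0.63, Krt8 from 0.30 to 0.41 and Krt7 from 0.15 to 0.36. Counts of called list genes ran, higher then lower, over 1 to 4 and 0 to 3 for other keratins, 1 to 4 and 0 to 1 for other claudins, 1 to 4 and 0 to 2 for tight junction partners, 2 to 5 and 1 to 1 for desmosomes, 1 to 5 and 1 to 2 for epithelial surface genes and 3 to 6 and 0 to 1 for other filaments. For the regulators 1 to 6 were called higher. Both genotypes are paired on each array, and every ratio rests on that pairing. No paired analysis was possible across the stages because they hold separate pools that the labels do not pair. Other calls of named genes were lost in 6 of 19 settings for Cldn8, 9 of 20 for F11r and Plac1, 10 for Gata3, 11 for Postn, 7 for Hbb-bh1, 4 for Grhl2 and 3 for Dsg2. The causes were not tested. Having 1 pool per genotype and stage leaves the spread between pools unmeasured.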
